A study of Mus musculus with 4 samples.

Results

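The Trim30 and Trim12 gene cluster is a group of neighbouring TRIM genes on mouse chromosome 7, followed here as 7 genes: Trim30a, Trim30b, Trim30c, Trim30d, Trim12a, Trim12c and Trim34a. They were taken by symbol, and all 7 were found among the 52636 genes of the count tables. The set was proposed with the young and aged values of these same data in view, so the values by age group are given as a description with no test. The study profiled single cells of kidney glomeruli from mice by droplet-based 3' RNA sequencing, in 2 young and 2 aged libraries. Both groups were untreated, and the labels give the groups only as young and aged. Age in months, sex, strain, genotype and the number of mice behind a library are not given in the labels. Mice were perfused with magnetic beads, so that glomeruli could be held on a magnet, and the glomeruli were then digested with enzymes.

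TRIM proteins carry a RING domain, which lets many of them attach ubiquitin to other proteins, and several are switched on by interferon. TRIM30a is known from mouse macrophages as an interferon- and Toll-like receptor-induced protein that restrains NF-kB signalling by lowering the adaptors TAB2 and TAB3. Trim12a and Trim12c belong with Trim5 to the mouse relatives of primate TRIM5, a factor that acts against retroviruses, and Trim34a is a further interferon-inducible relative. Glomeruli consist of endothelial cells, mesangial cells that hold the capillary loops, podocytes that cover them and the parietal epithelium of Bowman's capsule.

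In the GENCODE vM21 annotation of GRCm38 the genes lie in the order Trim34a (chr7:104244457-104262234), Trim12a (chr7:104299894-104315466), Trim12c (chr7:104338754-104353362), Trim30b (chr7:104355382-104369884), Trim30c (chr7:104382065-104400837), Trim30a (chr7:104409025-104465193) and Trim30d (chr7:104470014-104507849). Trim34a is on the plus strand and the other 6 are on the minus strand. Trim30a and Trim30d are neighbours, and the 250 bases before their RefSeq starts (GRCm38.p6) aligned with 227 of 250 bases identical, or 90.8%. The 4 sequences shown are the windows of this pair, of Trim12c, which holds the same motif, and of Trim30c, which comes close to it. All are on the minus strand and read 5' to 3'. Capitals mark matches to the core of the interferon-stimulated response element, written here as GAAA, any 2 bases and GAAA, which reads TTTC, any 2 bases and TTTC on the other strand. The windows lie at chr7:104465194-104465443 for Trim30a, chr7:104507850-104508099 for Trim30d, chr7:104353350-104353599 for Trim12c and chr7:104400779-104401028 for Trim30c.
Trim30a: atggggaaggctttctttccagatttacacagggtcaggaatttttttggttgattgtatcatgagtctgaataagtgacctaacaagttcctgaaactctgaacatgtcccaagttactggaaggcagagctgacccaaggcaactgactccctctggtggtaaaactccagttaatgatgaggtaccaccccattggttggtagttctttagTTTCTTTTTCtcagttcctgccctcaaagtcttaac
Trim30d: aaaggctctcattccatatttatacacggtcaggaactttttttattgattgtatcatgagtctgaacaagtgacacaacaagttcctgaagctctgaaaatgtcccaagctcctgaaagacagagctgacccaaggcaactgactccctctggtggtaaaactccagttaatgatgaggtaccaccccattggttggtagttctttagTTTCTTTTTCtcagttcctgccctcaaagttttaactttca
Trim12c: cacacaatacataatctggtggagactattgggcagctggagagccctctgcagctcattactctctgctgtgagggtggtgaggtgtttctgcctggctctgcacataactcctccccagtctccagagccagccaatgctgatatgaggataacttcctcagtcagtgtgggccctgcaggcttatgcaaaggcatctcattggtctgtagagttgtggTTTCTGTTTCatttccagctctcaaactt
Trim30c: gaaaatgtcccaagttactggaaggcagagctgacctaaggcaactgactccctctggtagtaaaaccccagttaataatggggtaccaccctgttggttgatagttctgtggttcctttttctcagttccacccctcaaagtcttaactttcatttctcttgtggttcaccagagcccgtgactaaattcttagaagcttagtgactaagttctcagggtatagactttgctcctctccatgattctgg

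The motif, searched on both strands, was found in the first window of Trim30a at -36 to -27 from the start, in that of Trim30d at -41 to -32 and in that of Trim12c at -29 to -20. It was not found in these letters in the windows of Trim12a, Trim30b, Trim30c and Trim34a, nor before a second RefSeq start of Trim30a. Of all 32851 RefSeq windows of this length, 2.98% held it. The Trim30b window, at chr7:104358647-104358896, lies inside the Trim30b gene as GENCODE places it. The bases before the GENCODE start of Trim30b were therefore not searched. Trim30a and Trim30d shared the 10 bases TTTCTTTTTC, and Trim12c had TTTCTGTTTC. The stretch of the Trim30c window most like that of Trim30a was TTCCTTTTTC, which differs by T3C, with positions counted from 1 at the 5' end of the 10 bases. A search of both strands for the core of the gamma-activated site, TTC, any 3 bases and GAA, found a match in the Trim30c window only among the members' windows, where 7.02% of all windows had one. The NF-kB letters GGGA, any 2 bases and TTCC were found in no member's window and in 1.21% of all windows. These matches describe letters and not bound sites.

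Because the paralogs are alike, the share of a transcript end that another gene also holds was computed. Of the 90-base stretches in the last 600 bases of its transcripts, Trim30a shared 15.7%, all with Trim30d, and Trim30d shared 12.4%, all with Trim30a. Trim34a shared 17.3% with Trim34b. The share was 1.64% for Trim12a, 1.37% for Trim12c and 0 for Trim30b and Trim30c. How reads from shared stretches were counted is not given in the sources used here, so the split between Trim30a and Trim30d, and the level of Trim34a, carry that uncertainty. Several members overlap another annotated gene. Trim30d overlaps the pseudogene Gm16464 on its own strand, Trim12c overlaps Gm27995 on its own strand, and Trim12a, Trim30a and Trim34a overlap Gm15133, Gm25405 and Gm47248 on the other strand.

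The libraries differed in quality, which touches every young value. They held 18457791 to 42046542 unique molecular identifiers (UMIs, 1 per captured transcript end) in 5532 to 10621 barcodes, and 5035 to 9187 cells were kept. Young replicate 2 stood apart. Its kept cells had a median of 1258 UMIs, against 2715 to 3730 in the other 3 libraries, and 54.8% of them fell in clusters with markers of several classes, against 0.751 to 1.59%. Those clusters were left out, so the sums of the 7 genes and several single members are given without that library too. Pairs of libraries shared 9 to 31 barcodes. The labels do not say whether libraries came from separate animals, so p-values measure only the spread between these libraries. Cells were classed by fixed markers after clustering without the 7 genes, and all 10 podocyte, 10 endothelial and 8 mesangial markers were detected in the class of that name in every library. Cluster 15 had 7 detected parietal epithelial markers but was led by Pcp4, Spp1, Igfbp2 and Tagln, the last a smooth muscle marker, so it is called by its number.

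In all deposited barcodes the 7 genes had 15838 UMIs. Trim30a had 7588 of them, Trim12c 3025, Trim12a 2342, Trim30d 1534, Trim34a 1099, Trim30b 183 and Trim30c 67. A UMI marks a transcript end, so these counts were not divided by gene length. No barcode held more than 10 UMIs of any member. The genes fell into 3 patterns of place. Trim30a and Trim30d had most of their UMIs in endothelial, mesangial and myeloid cells, with mesangial Trim30d almost only in aged libraries. Podocytes held 0.389 and 2.43% of their UMIs in classed cells. Trim12a, Trim12c and Trim34a also had most of their UMIs in those other classes, but podocytes held 22.6, 27.9 and 20.4%. These shares are not scaled to the number of cells per class. The sparse Trim30b and Trim30c lay mainly in blood-derived and endothelial cells. The plot of levels by class shows this for the 3 large glomerular classes. Levels are UMIs scaled to a common total of the class in a library (CPM), with edgeR's TMM factors within a class unless called plain. Lymphoid cells held both genes of the first pattern too. Of the UMIs in classed cells, B cells held 0.237% of Trim30a and 0.781% of Trim30d, and T and NK cells 0.186 and 0.607%. Young B cells had 43.5 and 40.5 plain CPM of Trim30a, on 6 and 4 UMIs.

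**Figure D1:**
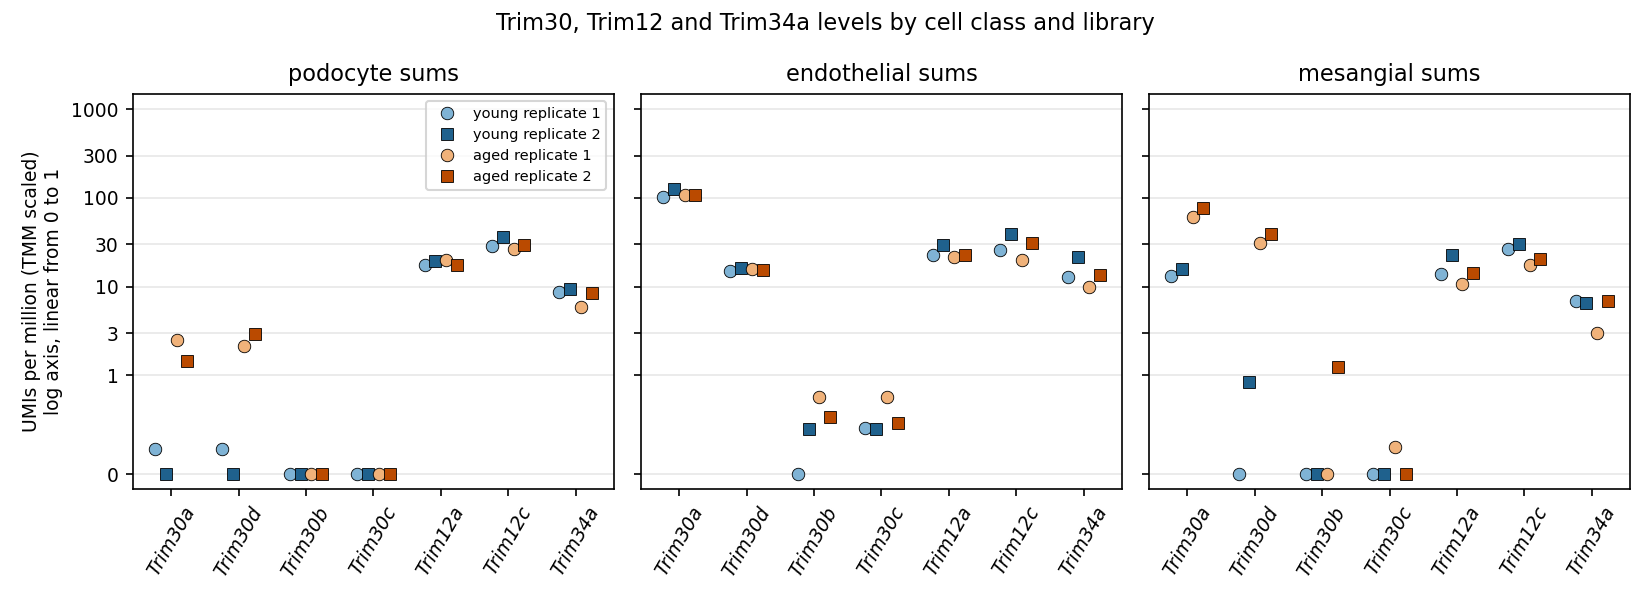
Level of each of the 7 genes in the summed UMIs of podocytes, endothelial cells and mesangial cells, in TMM-scaled CPM on a log axis that is linear from 0 to 1, with 1 point per library. In endothelial cells the young and aged points of Trim30a overlap, between 102 and 127, whereas in mesangial cells the aged points lie at 61.4 and 76.2 and the young ones at 13.2 and 15.9.

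Levels were also compared between cell classes of the same library, in edgeR's quasi-likelihood test with the library as a block and p-values adjusted over all genes. The genes were chosen by age and not by class, but with earlier results of these data known, so these p-values are not independent evidence. Endothelial cells had the highest Trim30a level of the glomerular classes, with 102, 137, 103 and 104 plain CPM in the young (replicates 1 and 2) and aged (replicates 1 and 2) libraries, in that order. The mesangial values were 13.5, 16.6, 57.1 and 74.3 plain CPM and the podocyte values 0.257, 0, 2.48 and 1.41. The order endothelial, mesangial, podocyte held in all 4 libraries. Endothelial cells exceeded mesangial cells by 1.35 on the log2 scale (SE 0.33, edgeR adjusted p 0.00447). That fitted value joins differences of unlike size and describes neither age group. Mesangial Trim30a stood at 13.2 and 12.1% of its endothelial level in young against 55.5 and 71.5% in aged libraries. Podocyte Trim30a did not pass the count filter of podocytes alone, at 2, 0, 14 and 7 UMIs, and entered the comparisons with podocytes only through the other class. Its fitted log2 differences, 6.73 from endothelial and 5.27 from mesangial cells, are therefore given with no test. In podocytes Trim30a stood at 0 to 2.41% of its endothelial level, and the endothelial marker Pecam1 at 0.298 to 0.859%.

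The other members had smaller differences between these classes. In the comparison of endothelial cells with podocytes, where 41.2% of 12213 genes were called higher in endothelial cells, Trim34a was higher by 0.85 (edgeR adjusted p 0.000493) and Trim12a by 0.42 (adjusted p 0.00727), each in 4 of 4 libraries. Trim30d, with 2 and 0 young and 12 and 14 aged podocyte UMIs, had a fitted log2 difference of 3.61, given with no test. For Trim12c the difference was -0.01 (SE 0.11, adjusted p 0.923), and it was higher in endothelial cells in 2 of 4 libraries. Endothelial cells were then compared with mesangial cells. Trim30a, Trim34a and Trim12a of the 5 members in that fit were called higher in endothelial cells, where 29.9% of 11401 genes were. The differences were 1.23 for Trim34a (adjusted p 0.000462) and 0.69 for Trim12a (adjusted p 0.0017). Trim30d, with 0 and 1 young and 112 and 156 aged mesangial UMIs, had a fitted log2 difference of -0.36, given with no test. Its endothelial level was the higher one in both young libraries and the lower one in both aged libraries. The fitted value joins these opposite differences. Between mesangial cells and podocytes, Trim12a, Trim12c and Trim34a were not called (edgeR adjusted p 0.181, 0.0553 and 0.13), where 35.8% of 11283 genes were called higher in mesangial cells. Each of the 5 tested and called differences kept its call under each alternative, as listed in the closing section.

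Within the endothelium, Trim30a had UMIs in all 5 clusters that made up the class. Cluster 0, with the adhesion molecule Sele, Plaur and Il6 among its leading genes, had 126 and 183 plain CPM in young against 135 and 144 in aged libraries. Cluster 1, led by Ier5l, Rflna and Plk2, had 89.96 and 112 in the young against 69.5 and 77.2 in the aged. Cluster 3, led by Cyp26b1 and the glomerular capillary marker Ehd3, had 102 and 141 against 90.02 and 87.4. In each library Trim30a was thus higher in cluster 0 than in clusters 1 and 3. Cluster 7, led by Esm1, had 126 and 158 against 84.3 and 71.5 plain CPM. Cluster 8, led by Tspan8 and Thbs2, had 82.3 and 121 against 66.7 and 82.2. In clusters 1, 3, 7 and 8 the aged plain CPM were all below the young ones, in cluster 8 by 82.2 against 82.3 at the nearest pair. In cluster 0 the groups overlapped. In the whole class, with TMM scaling, 24.4% of 13177 tested genes had both aged values below both young ones. That share was not computed within clusters, so nothing is read from these orders.

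**Figure D2:**
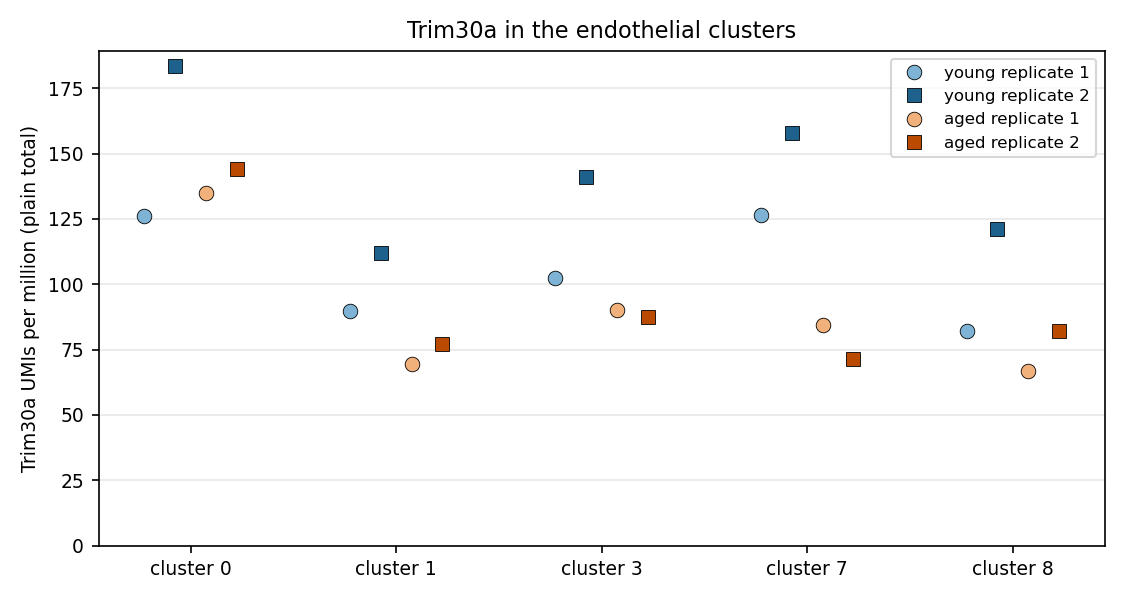
Trim30a level in each endothelial cluster, in plain CPM on a linear axis from 0, with 1 point per library. Cluster 0 lies highest in both aged libraries, and in cluster 7 the young points at 126 and 158 lie above the aged ones at 84.3 and 71.5.

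Of 2413 and 1423 young endothelial cells 449 and 217 were in cluster 0, against 2618 and 1505 of 6029 and 4307 aged ones. The whole endothelial class, in which these clusters are pooled, had overlapping groups for Trim30a, at 114 ± 17.4 CPM in young and 108 ± 0.627 in aged libraries (SD, n = 2 each), a log2 difference of -0.08 that was 0.0877 without young replicate 2. Its sign thus rested on young replicate 2, at 127, since the other young library, at 102, was below both aged ones. The part of the differing cluster make-up in that value was not tested. Trim30d followed with 14.9 and 16.4 CPM in young against 15.8 and 15.3 in aged endothelial sums, a log2 difference of -0.01 that was 0.0616 without young replicate 2. For Trim12a the endothelial values were 25.9 ± 4.78 and 22.1 ± 0.933 CPM, for Trim12c 32.5 ± 9.08 and 25.5 ± 7.74, and for Trim34a 17.3 ± 6.14 and 11.6 ± 2.51, and the groups overlapped for all 3. Their log2 differences were -0.22, -0.34 and -0.54, and -0.0242, -0.0277 and -0.14 without young replicate 2. Of the 7 genes, 2 had both aged endothelial values above both young ones, as had 24.5% of 13177 genes tested there, and none had them below, as had 24.4%. The higher ones were Trim30b, with 0 and 2 young and 12 and 9 aged UMIs, and Trim30c, with 3 and 2 young and 12 and 8 aged UMIs, neither of which passed the count filter. Their ratios of pooled rates were 3.35 (exact interval 0.820 to 29.5) and 1.28 (0.465 to 4.36). All ratios of pooled rates, here and below, use plain totals and no TMM factors. With plain totals the endothelial Trim30a log2 difference was -0.21 in place of -0.08. The ratio was 0.894 (0.836 to 0.955) for Trim30a, 0.927 (0.776 to 1.11) for Trim30d and 0.808 (0.701 to 0.934) for Trim12a. For Trim12c it was 0.755 (0.663 to 0.860) and for Trim34a 0.651 (0.543 to 0.784). The intervals cover counting error only. Over the 7 genes together, endothelial cells had 206 ± 38.8 CPM in young and 184 ± 11.1 in aged libraries, a log2 difference of -0.16 that was 0.0455 without young replicate 2.

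Mesangial cells from aged libraries had higher levels of both Trim30a and Trim30d than those from young ones. Fewer cells of a subtype and less RNA per cell cannot be told apart in such sums. Trim30a had 21 and 17 UMIs in young against 222 and 306 in aged sums, from 276 and 189 young and 605 and 432 aged cells. Its level was 14.5 ± 1.92 CPM in young and 68.8 ± 10.5 in aged libraries (SD, n = 2 each). The ratio of the pooled UMI rates was 4.47, with an exact interval of 3.22 to 6.39 that covers counting error only. Both aged values were above both young ones. Trim30d had 0 and 1 UMIs in the young sums, where 3 UMIs would have been 1.93 and 2.93 plain CPM, and 112 and 156 in the aged ones. Its level was 0.468 ± 0.661 CPM in young and 34.9 ± 5.56 in aged libraries, and the ratio of pooled rates was 86.3 with an exact interval of 15.4 to 3420. The young value rests on 1 UMI.

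Of the 7 genes, 2 had both aged mesangial libraries above both young ones, as had 26.3% of 10429 genes tested there, and 1, Trim12c, had them below, as had 27.1%. Because the genes were chosen on this contrast, nothing is read from these shares. Trim12c had 26.4 and 29.9 CPM in young against 17.4 and 20.4 in aged sums, a log2 difference of -0.55. Trim12a had 13.8 and 22.4 against 10.8 and 14.2, and Trim34a 6.90 and 6.55 against 3.04 and 6.97, with overlapping groups. Their ratios of pooled rates were 0.672 (exact interval 0.468 to 0.977) and 0.697 (0.390 to 1.30). For Trim12c the ratio was 0.631 (0.473 to 0.846). Without young replicate 2 the Trim12a log2 difference was -0.13 in place of -0.50. Trim30b was seen with 5 UMIs in aged replicate 2 and Trim30c with 1 in aged replicate 1, and neither had any in the other mesangial sums. Of the 7 genes, 5 passed the count filter in mesangial cells. The summed genes had 68.0 ± 10.97 CPM in young and 141 ± 24.0 in aged libraries, a log2 difference of 1.04 that was 1.21 without young replicate 2 and 0.49 with mixed cells kept. That sum joins Trim30a and Trim30d, higher in the aged libraries, with Trim12a, Trim12c and Trim34a, whose mean was lower there.

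The mesangial values were set beside markers of other cells. Against the endothelial level of the same library, mesangial Trim30a stood at 13.2 and 12.1% in young against 55.5 and 71.5% in aged libraries, and Trim30d at 0 and 5.51% against 191 and 260%. The endothelial markers Pecam1 and Cdh5, measured the same way, stood at 1.18 to 2.63% with aged values of 1.18 to 2.22%, and Kdr and Tie1 at 0.347 to 2.32%. Flt1 went from 1.59 and 2.60% to 5.44 and 6.99%. The whole list of 10 endothelial markers, which includes Eng, Plvap and Ehd3 that the mesangial cluster itself held at high level, had 2011 and 2012 summed plain CPM in young against 2397 and 2493 in aged mesangial sums. All 10 had UMIs in each library. The 8 macrophage markers summed to 560 and 567 plain CPM in young against 482 and 350 in aged mesangial sums, with 4 of 8 detected in each young sum, and 8 and 7 in aged sums.

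Other genes of the mesangial cells also differed between the age groups. Of 12 genes induced by tissue dissociation 4 were called lower in aged mesangial cells and none higher, where 5.62% of all genes were called. These were the immediate early genes Egr1 (-1.28, edgeR adjusted p 0.00374), Btg2 (-1.18, adjusted p 0.00719), Atf3 (-0.88, adjusted p 0.0158) and Jun (-1.004, adjusted p 0.026). Egr1 kept its call without each single library, Btg2 lost it without young replicate 2, and Atf3 and Jun lost it when either young library was left out. With mixed cells kept, Egr1 alone of these 4 kept its call. In the same list 4 rose and 1 fell in podocytes, 2 rose in endothelial cells and 6 fell in cluster 15. Of all genes 6.22, 6.15 and 3.7% were called there, in that order. Cells with mixed markers moved the values. When cells of mixed clusters were kept under their best class, the log2 difference was 0.83 for Trim30a in place of 2.17, and 2.65 for Trim30d in place of 4.61. Most of those cells came from young replicate 2, which gave 1854 of the 1925 cells of the mixed cluster nearest to mesangial cells. Without young replicate 2 the differences were 2.30 and 5.14, and without young replicate 1 they were 2.05 and 4.21. What part the dissociation genes or mixed cells have in the values was not tested.

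Shares of single cells with a UMI were compared at an even depth. After each cell was thinned to 1000 UMIs, 1.10 and 2.37% of young and 4.67 and 6.98% of aged mesangial cells had a Trim30a UMI. Cells under that depth, 4 and 20 in young against 6 and 2 in aged libraries, were left out. For Trim30d the thinned shares were 0 in both young libraries, on 0 of 272 and 0 of 169 cells. There 3 cells would have been 1.10 and 1.78%, and the exact intervals reached 1.35 and 2.16%. In the aged libraries the Trim30d shares were 3.51 and 3.02%. Before thinning, Trim30d was seen in 0 and 0.529% of young and 14.7 and 25.0% of aged mesangial cells. Podocytes, taken as a class with little Trim30a, had thinned shares of 0 and 0% in young against 0.302 and 0.152% in aged libraries. Median depth was 3788, 3407, 4086 and 5952 UMIs in mesangial cells and 4198, 5715, 5824 and 7678 in podocytes. In the aged libraries 49 and 62 mesangial cells had UMIs of both genes.

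The series title names senescence, and Cdkn2a, the gene of the senescence-linked inhibitor p16, was used to split the aged mesangial cells. In aged replicate 1, Trim30a stood at 67.9 plain CPM in the 59 cells with a Cdkn2a UMI and at 55.0 in the 546 without. In aged replicate 2 it stood at 68.8 in 68 cells and at 76.4 in 364 cells, so the order turned between libraries. Trim30d had 29.3 and 28.7 plain CPM in aged replicate 1 and 50.1 and 33.3 in aged replicate 2. Cells with a Cdkn2a UMI were deeper, with medians of 7772 and 13564 UMIs against 3769 and 5221. No test was made, since the cells of a library are not replicates. In the young libraries 1 cell each had a Cdkn2a UMI.

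The share of Trim30d in the UMIs of the paralog pair was set side by side over classes, with no test. In endothelial cells Trim30d made up 12.7, 11.5, 12.8 and 12.3% of the UMIs of the pair in the young (replicates 1 and 2) and aged (replicates 1 and 2) libraries, in that order. In aged mesangial cells it made up 33.5% (exact interval 28.5 to 38.9%) and 33.8% (29.5 to 38.3%), above the endothelial intervals of the same libraries, 11.3 to 14.4% and 10.9 to 13.9%. In young mesangial cells it was 0 of 21 UMIs, with an interval up to 16.1%, and 1 of 18, with an interval up to 27.3%, which overlap the endothelial ones. Monocytes and dendritic cells had 19.0 and 22.0% in young against 20.8 and 26.0% in aged libraries, and macrophages 24.8 and 14.2% in the aged ones. In aged podocytes the share was 46.2% (26.6 to 66.6%) on 26 UMIs and 66.7% (43.0 to 85.4%) on 21. A high share in aged libraries was thus not particular to mesangial cells. Young podocytes had too few UMIs of the pair for a share. The intervals cover counting error only. With mixed cells kept, the mean share was 10.2% in young and 32.1% in aged mesangial cells, in place of 2.78 and 33.6%.

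**Figure D3:**
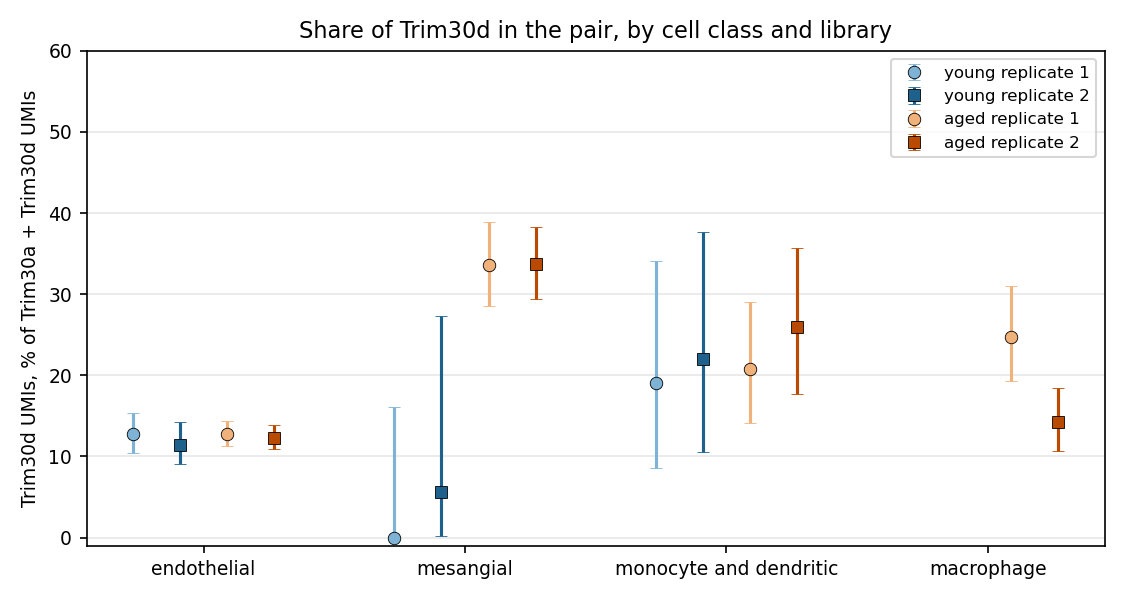
Share of Trim30d in the UMIs of Trim30a and Trim30d together, in percent, by cell class, with 1 point per library and bars for the exact 95% interval of counting error. The 4 endothelial points lie between 11.5 and 12.8%, and the 2 aged mesangial points at 33.5 and 33.8%. Podocytes are not drawn.

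Podocytes had few Trim30a and Trim30d UMIs in any library. Trim30a had 2 and 0 UMIs in young against 14 and 7 in aged sums, with a ratio of pooled rates of 10.9 and an exact interval of 2.67 to 96.2. Trim30d had 2 and 0 in young against 12 and 14 in aged libraries, with a ratio of 13.5 and an interval of 3.39 to 118. With cells of mixed clusters kept under their best class, the Trim30a log2 difference turned from 1.40 to -0.89 and that of Trim30d was 1.03 in place of 1.65. Both aged values were above both young ones for these 2 of 7 genes, as for 23.6% of 10900 genes tested in podocytes, and below for 1, Trim34a, as for 22.5%. Trim30a did not pass the count filter there, and 4 members did. Beside its endothelial level, podocyte Trim30d stood at 1.72 and 0% in young against 14.1 and 19.3% in aged libraries, when the whole endothelial marker list stood at 0.318 and 0.747% and at 0.672 and 0.591% of its endothelial level in the same libraries. The main podocyte members were the others. Trim12c had 28.6 and 36.0 CPM in young against 26.6 and 29.5 in aged sums. Trim12a had 17.6 and 19.3 against 20.2 and 17.4, and Trim34a had 8.67 and 9.35 against 5.89 and 8.58. In that order their ratios of pooled rates were 0.878 (0.749 to 1.03), 1.01 (0.826 to 1.24) and 0.779 (0.568 to 1.06). No Trim30b or Trim30c UMI was seen in podocytes, in sums of 3288431 to 7773004 UMIs. The summed genes had 60.0 ± 6.52 CPM in young and 58.5 ± 1.84 in aged libraries, a log2 difference of -0.03 that was 0.0733 without young replicate 2.

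The cells of cluster 15 numbered 30 and 62 in young against 49 and 55 in aged libraries, and no member passed the count filter there. None of the 7 genes had both aged values above both young ones, where 25.0% of 4377 tested genes had, or below, where 25.2% had. Trim12c had 5, 3, 4 and 10 UMIs in the 4 libraries, Trim30d 1, 1, 2 and 4, and Trim30a 0, 0, 0 and 4. The log2 difference of the summed genes was -0.30, and it was -0.43 without young replicate 2, -0.90 without aged replicate 2 and 0.16 without aged replicate 1.

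Blood-derived cells held most of Trim30b. Of the Trim30b UMIs in classed cells, 29.7% were in neutrophils and 28.8% in monocytes and dendritic cells. The 57 and 17 neutrophils of the aged libraries had 23 and 8 Trim30b UMIs, or 290 and 300 plain CPM, and the 5 neutrophils of young replicate 2 had 4, whereas young replicate 1 had no neutrophil. Trim30c had 41.0% of its UMIs in endothelial cells, 29.5% in monocytes and dendritic cells and 24.6% in macrophages. In monocytes and dendritic cells Trim30b stood at 16.8 and 15.7 plain CPM in young against 8.93 and 5.17 in aged libraries, and Trim30c at 22.3 and 9.41 against 3.43 and 1.03. Trim30a stood there at 95.0 and 100.4 against 68.0 and 38.2. The aged values were the lower ones for each of these genes. These values rest on 34 and 32 young and 99 and 74 aged Trim30a UMIs and on 2 to 13 UMIs of the others. The share of all genes with such an order was not computed in this class, so nothing is read from it. Aged macrophages had 50.1 and 60.7 plain CPM of Trim30a and 16.5 and 10.1 of Trim30d, and young libraries had too few macrophages to compare, 3 and 7 cells. The classes outside the glomerulus were not tested.

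The interferon-stimulated genes of a separate list, which holds none of the 7, were tested for age in the same fits. The age calls of this and the other gene lists, the flanking genes included, depended on the setting. With no count filter edgeR kept 0 of the 18 endothelial calls, and DESeq2 kept 12. With mixed cells kept, 1 of 16 podocyte and 5 of 13 mesangial calls remained, namely Nfkbia in podocytes and Egr1, Gbp2, Gbp5, Nfkb1 and Wdfy1 in mesangial cells, and DESeq2 kept 6 and 10. At a limit of 10% mitochondrial UMIs 0 of the 9 calls of cluster 15 remained, and DESeq2 kept 6. In podocytes 3 of 31 tested list genes rose and none fell, with a list median of 0.25 on the log2 scale beside 0.00 for all genes and with 6.22% of all genes called. Ifit3 went from 13.2 ± 0.0302 to 23.9 ± 3.51 CPM (log2 difference 0.85, SE 0.20, edgeR adjusted p 0.00494) and Herc6 rose by 0.87 (adjusted p 0.0127). Bst2, which tethers budding viruses, rose by 0.63 (adjusted p 0.0359), and the difference was 0.30 without young replicate 1 and turned to -0.59 with mixed cells kept. All 3 podocyte calls ended in DESeq2 and with mixed cells kept. In endothelial cells 1 of 48 rose, Irf7, an interferon-response regulator, by 0.47 (adjusted p 0.0479, not called by DESeq2), with a list median of 0.18 beside -0.01 and 6.15% of all genes called. In mesangial cells 2 of 40 rose, with a median of 0.13 beside -0.01 and 5.62% called. These were Bst2, from 372 ± 52.7 to 718 ± 226 CPM (log2 difference 0.95, adjusted p 0.028, and 0.60 without aged replicate 2), and Lgals3bp, by 0.68 (adjusted p 0.0332, not called by DESeq2). In cluster 15 none of 8 was called by edgeR or DESeq2, with 1 at an unadjusted p under 0.05, where 3.7% of all genes were called. Each of the 6 calls was lost without at least 1 library. Ifit3 lost it without aged replicate 2 (log2 difference 0.70), Herc6 without young replicate 1 or aged replicate 2 (0.66 and 0.65), Bst2 in podocytes when any library except young replicate 2 was left out, Irf7 when any of the 4 was left out, and both mesangial genes when either young library was left out.

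A second list held interferon-gamma-induced GTPases and antigen presentation genes. The shares of all genes called, given above by class, stand beside its counts and those of the lists below. Gbp2, a guanylate-binding protein, rose in 3 classes. In endothelial cells it went from 43.9 and 50.7 CPM in the young to 136 and 109 in the aged libraries (log2 difference 1.38, SE 0.15, edgeR adjusted p 1.53e-05). In mesangial cells it went from 30.1 and 25.2 to 68.3 and 70.9 (1.31, SE 0.19, adjusted p 0.00371), and in podocytes it rose by 1.00 (adjusted p 0.00445), which was 0.50 without young replicate 1. Of 26 genes tested in endothelial cells 5 rose and none fell. The others were Gbp8 (1.87, adjusted p 0.00231), Gbp5 (0.87, adjusted p 0.00973), the chemokine Cxcl10 (0.68, adjusted p 0.041) and the peptide transporter Tap1 (0.51, adjusted p 0.0498). Of 24 in mesangial cells 3 rose, Gbp2, Gbp5 (1.44, adjusted p 0.017) and B2m, the light chain of class I molecules (1.28, adjusted p 0.00939), and Irf1 fell (-0.85, adjusted p 0.026). Of 17 in podocytes 1 rose and Socs1, an inhibitor of cytokine signalling, fell by 1.40 (adjusted p 7.85e-05). In cluster 15, 1 of 9 changed, Irf1, which fell by 1.39 (adjusted p 0.00326). Mesangial Gbp2, podocyte Socs1 and Irf1 of cluster 15 kept their calls without each single library. Endothelial Gbp2, podocyte Gbp2, mesangial Gbp5 and B2m lost them without young replicate 1, with log2 differences of 1.28, 0.50, 1.29 and 1.08. The remaining 5 lost them when either young library was left out, and Cxcl10 and Tap1 also without aged replicate 1. In endothelial cells Cxcl10 was 0.38 without young replicate 1 and 1.06 without young replicate 2, and Gbp5 was 0.51 without young replicate 1.

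Interferon ligands, receptors and signalling genes gave 1 call, Jak2 in endothelial cells (0.89, edgeR adjusted p 0.00293, 1 of 13), lost when any library except aged replicate 2 was left out. None of 11 in podocytes, 12 in mesangial cells and 4 in cluster 15 was called by edgeR or DESeq2, with 3, 3 and 1 at an unadjusted p under 0.05. Among genes tied to TRIM30 and TRIM5 proteins, Nfkb1, which encodes an NF-kB subunit, rose in mesangial cells from 48.9 and 50.5 to 168 and 161 CPM. Its log2 difference was 1.73 (SE 0.16, edgeR adjusted p 0.000249), it was the 1 called gene of 17, and it kept its call without each single library. In podocytes 3 of 15 rose, the NF-kB inhibitor Nfkbia by 1.31 (adjusted p 1.88e-07), the adaptor Myd88 by 0.59 (adjusted p 0.0178) and the subunit Rela by 0.52 (adjusted p 0.0221), the last 2 lost when either aged library was left out. In endothelial cells Nfkbia rose by 0.76 (adjusted p 0.0115, 1 of 18), a call lost when any 1 library was left out. In cluster 15 Nfkb1 rose (1.595, adjusted p 0.0394, 1 of 8) and was kept only without aged replicate 1. Tab2, Tab3 and Traf6 were called in none of the classes where edgeR tested them, and in mesangial cells Tab2 had a log2 difference of 0.04 (adjusted p 0.922) and Tab3 of -0.53 (adjusted p 0.475). Of the other TRIM family genes none of 25 in podocytes, 27 in mesangial cells and 9 in cluster 15 was called by edgeR or DESeq2, with 3, 2 and 1 at an unadjusted p under 0.05. Of 33 in endothelial cells Trim16 (0.66, adjusted p 0.00675) and Trim25 (0.62, adjusted p 0.0198) rose and Trim35 fell (-0.58, adjusted p 0.0451), all of which were lost when either young library was left out. Trim25 also lost it without aged replicate 1 and Trim35 without aged replicate 2.

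**Figure D4:**
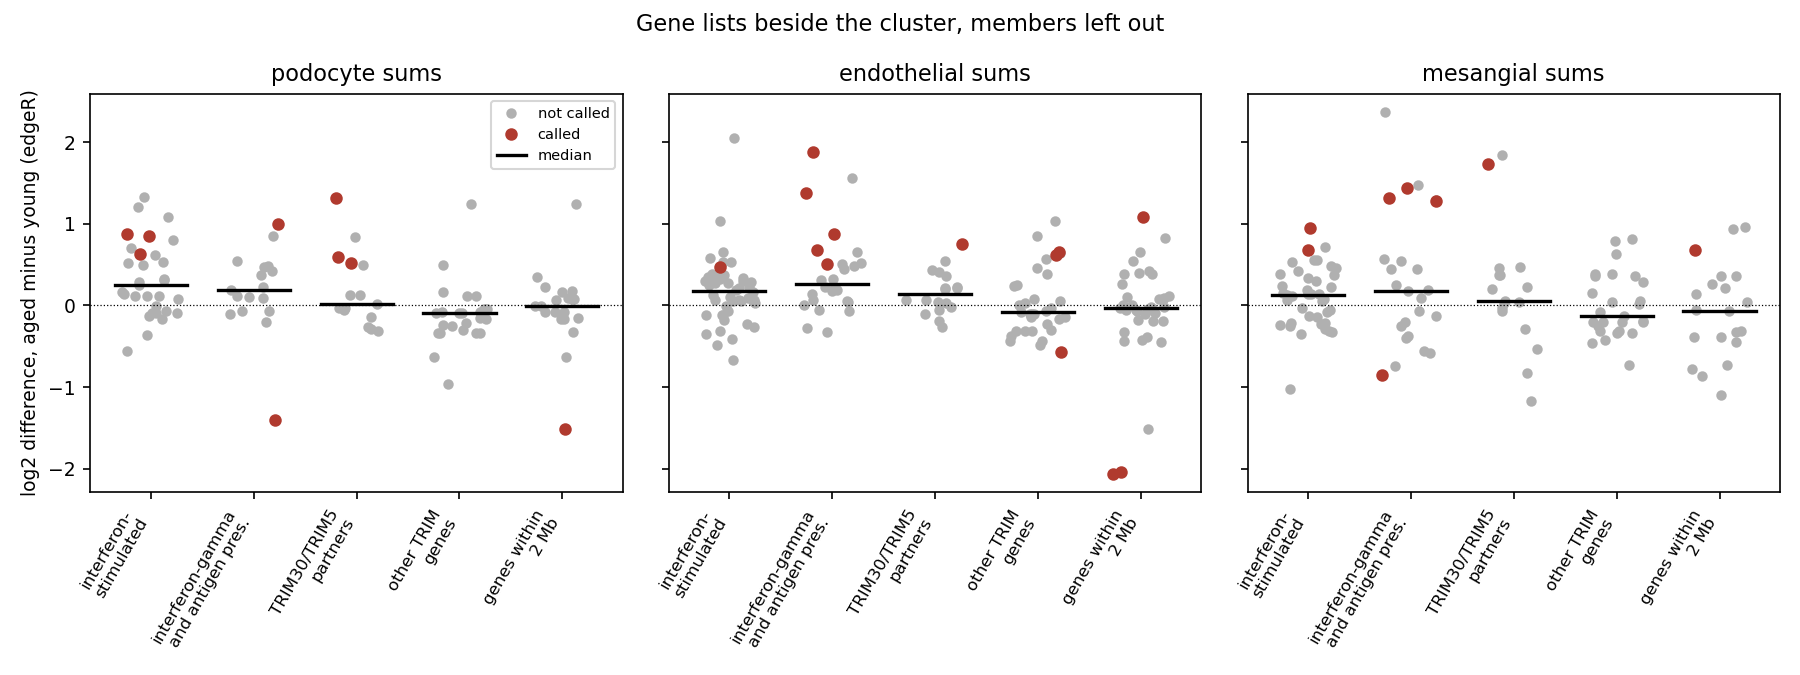
Log2 difference of aged minus young libraries for each tested gene of 5 lists, in podocyte, endothelial and mesangial sums, with called genes in red and the list median as a black bar. Most genes of each list are grey, and the medians of the interferon-stimulated list lie at 0.25, 0.18 and 0.13.

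Genes next to the cluster were examined to see whether the whole region differed with age. Within 2 Mb of the cluster's span the annotation lists 271 other genes, of which 20 were tested in podocytes, 37 in endothelial cells, 20 in mesangial cells and 8 in cluster 15. In cluster 15 neither edgeR nor DESeq2 called any, and 0 reached an unadjusted p under 0.05. Among those of mesangial cells Tpp1, a lysosomal peptidase gene 1236962 bases from the span, rose from 67.8 and 67.3 to 103 and 113 CPM (log2 difference 0.68, SE 0.16, edgeR adjusted p 0.0352), and none fell. In endothelial cells Gm45684 rose (1.09, adjusted p 0.00144), and the haemoglobin genes Hbb-bs (-2.07, adjusted p 0.000536) and Hbb-bt (-2.04, adjusted p 0.0052), which mark red cells, fell. In podocytes Hbb-bs was called lower (-1.51, adjusted p 0.00095), and its difference turned to 0.64 at a limit of 10% mitochondrial UMIs and it was not called with mixed cells kept. The medians were -0.06 in mesangial cells, -0.03 in endothelial cells and -0.01 in podocytes, beside -0.01, -0.01 and 0.00 for all genes. Trim5, which lies inside the span, was not called, with a mesangial log2 difference of -0.73 (adjusted p 0.369) on 10 and 10 young and 14 and 21 aged UMIs. Gm16464, which overlaps Trim30d, had 0, 0, 0 and 2 mesangial UMIs. Tpp1 and the endothelial calls were lost when either young library was left out, Hbb-bt also without aged replicate 2, and podocyte Hbb-bs without aged replicate 2 (-1.10). DESeq2 did not call Tpp1 or endothelial Hbb-bs.

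**Figure D5:**
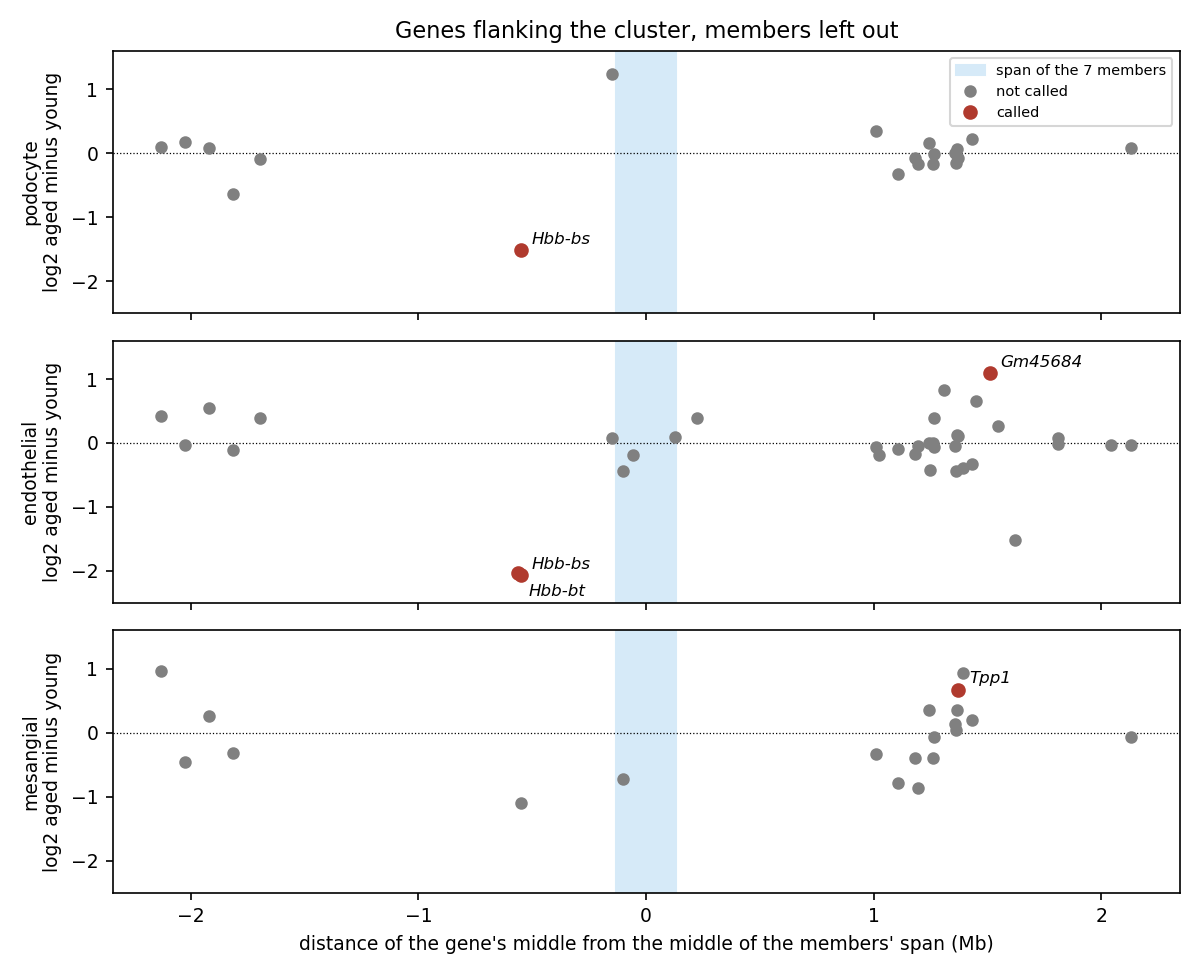
Log2 difference of aged minus young libraries for tested genes within 2 Mb of the cluster, by distance from the middle of the span in Mb, with called genes in red and the span shaded. The members are left out, and no gene inside the span is red.

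Sex and mouse substrain can move single genes, so their marker genes were read as well. The Y-linked gene Ddx3y had 2513, 1659, 4534 and 4641 UMIs over classed cells of the 4 libraries and Xist had 2, 0, 4 and 5, and none of the 4 sex-linked genes tested in each of podocytes, endothelial and mesangial cells was called by edgeR or DESeq2 or had an unadjusted p under 0.05. Nnt, which is partly deleted in one C57BL/6 substrain, had 6, 4, 7 and 11 UMIs, low in all 4 libraries. Of 4 tested genes reported to differ between substrains, Btaf1 (0.53, edgeR adjusted p 0.0167) and Ide (0.71, adjusted p 0.0107) rose in podocytes and in endothelial cells (0.58, adjusted p 0.0221, and 0.69, adjusted p 0.0405), and Wdfy1 rose in mesangial cells (1.12, adjusted p 0.0219). In cluster 15 Btaf1 rose by 1.73 (adjusted p 0.0437, 1 of 2 tested). Whether a difference in strain has a part in the age groups' values of the cluster was not tested. Each of these calls was lost without at least 1 library: Wdfy1 and Btaf1 of cluster 15 without young replicate 1, Ide in both classes without aged replicate 2 (0.42 in podocytes and 0.34 in endothelial cells) or young replicate 2, and in endothelial cells also without young replicate 1. Btaf1 lost it when either aged library was left out in podocytes and when aged replicate 1 or either young library was left out in endothelial cells, and in cluster 15 it was 2.71 without young replicate 2.

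Likeness of level over the 16 sums of 4 glomerular classes and 4 libraries was ranked among 4032 of the 52636 genes. These are fewer genes than were tested in any of the 4 classes, and Trim30a itself did not pass the count filter in podocytes. Closer matches among the genes left out were not looked for. Within the 4032, the genes most like Trim30a were Sh3bgrl3 (Pearson r 0.95 of log2 of plain CPM plus 1), Pde12 (0.95), Plscr1 (0.95), Rac1 (0.94) and Bst2 (0.94). Among the other members r with Trim30a was 0.77 for Trim30c, 0.64 for Trim30b, 0.62 for Trim30d, 0.54 for Trim34a, 0.50 for Trim12a and 0.03 for Trim12c. For Trim12c, the member with the next highest UMI total in these sums, the nearest were Frg1 (0.89), Arl6ip1 (0.81), Nsd1 (0.78), Msrb3 (0.78) and Zhx1 (0.78). For Trim30d, added after its values were seen, they were H2-K1 (0.91), a class I molecule, Tnfaip2 (0.86), Spry1 (0.86), mt-Tc (0.83) and Rpl23 (0.81). The sums share libraries and depth, so these values only describe.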

How the data were processed

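Single-cell 3' RNA libraries of mouse glomeruli were measured, 2 young and 2 aged. The deposited matrices hold raw UMI counts per gene and barcode, 1 per library, with no normalization. Per the file headers and the submitters' processing notes they come from Cell Ranger 6.0.1, whereas the labels' protocols name version 3.1.0. Reads were aligned to GRCm38, per the labels. The version that made the counts was not settled.

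The genes and gene lists were chosen with earlier results of these data known, and so were the tests. Barcodes with at least 500 genes and at most 20% mitochondrial UMIs were kept. The Scrublet threshold in scanpy 1.11.5 marked 134 of 29876 barcodes, so the highest scores were removed at 0.8% per 1000 barcodes. Cells were clustered without the 7 genes (2000 variable genes, 30 components, 15 neighbours, leidenalg 0.10.2, resolution 1.0, seed 0), without integration of libraries. The naming thresholds were set after the data were seen: a marker level of 0.35 of the best cluster, at least 3 detected markers, and unrelated markers under 0.3 of the named class, or 0.25 in a single cell. Cells left without a class were 4.55% (replicate 1) and 62.4% (replicate 2) in young, against 2.69% (replicate 1) and 4.00% (replicate 2) in aged libraries.

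UMIs were summed per class and library and tested with edgeR 4.0.16 (R 4.3.3, TMM, default expression filter, quasi-likelihood F test, Benjamini-Hochberg adjustment over all genes, threshold 0.05). SE is the log2 difference divided by the square root of F. Members are described with 1.0 CPM added before logs. DESeq2 1.42.0, other scaling, filters, cell sets and left-out libraries were the alternatives. Replicates of a group were not copies, at 19.0 (young) and 47.1 (aged) chi-square units for each degree of freedom. The edgeR step was tested on simulated data. Named were all members and up to 4 called genes per list, class and direction with the smallest p. Endothelial Tap1 was named beyond that limit, and some genes without a call, such as Tab2 and Tab3, are named too. Flanking genes are printed where called or inside the span. The 5 genes most like 2 members, among the 4032 compared, were also named, and Trim30d was added to these members later. Promoter windows are RefSeq's (GRCm38.p6) and gene positions GENCODE's, in which 99.6% of gene IDs were found.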

Additional observations from a re-analysis of the deposited data

Results flagged for a closer look

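Among the dissociation-induced genes, 2 were called in opposite directions in different classes. Atf3 had a log2 difference of 0.76 in podocytes and -0.88 in mesangial cells. Dusp1 had 1.17 in endothelial cells and -0.80 in podocytes. In each case both aged libraries were on 1 side of both young ones, and the difference between the classes was not tested. Beside single left-out libraries, the podocyte call of Atf3 was lost without aged replicate 2 and that of Dusp1 without aged replicate 1, the mesangial call of Atf3 when either young library was left out, and the endothelial call of Dusp1 without young replicate 2.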

How the results depend on the processing

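Among the class differences of the members, Trim12c came to pass the threshold in 3 of 112 comparisons with another setting and in 2 of 56 with a library left out. The other tested differences stayed on their side of it. Those totals include the fits given with no test, from which nothing is read. These are Trim30a and Trim30d against podocytes and Trim30d between endothelial and mesangial cells. Trim30a ranged from 5.36 to 7.61 between endothelial cells and podocytes, from 1.06 to 1.83 between endothelial and mesangial cells and from 4.19 to 5.84 between mesangial cells and podocytes. The summed genes stood at 0.49 in mesangial cells with mixed cells kept, and with 1 library left out they ranged from -0.34 to 0.0455 in endothelial cells and from -0.90 to 0.16 in cluster 15. For mesangial Trim30d a prior of 0.1 CPM gave 5.95 in place of 4.61.

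Counts of called genes depended on the setting, and the cause was not tested. Over all genes, podocytes gave 678 calls, 270 by DESeq2, 77 with mixed cells kept and 305 to 1270 with 1 library left out. Endothelial cells gave 811, 500 by DESeq2, 0 with no count filter and 56 to 779 with 1 library left out, the 56 when either young library was left out. Mesangial cells gave 586, 344 by DESeq2, 1233 with no filter and 211 to 1741. Cluster 15 gave 162, 48 by DESeq2, 325 with no filter and 0 at 10% mitochondrial UMIs. Of interferon-stimulated genes, podocytes gave 3, 0 by DESeq2, 0 with mixed cells and 0 to 7 with 1 library left out. Endothelial cells gave 1, 0 by DESeq2, with no filter, with doublets kept or with the members among the clustering genes, 2 at 10% mitochondrial UMIs and 0 to 3 with 1 library left out. Mesangial cells gave 2, 1 by DESeq2, 6 with no filter and 0 to 9, and cluster 15 gave 0, 5 with no filter, 1 with mixed cells or members among the clustering genes and 0 to 4. Of flanking genes, podocytes gave 1, 0 with mixed cells or at 10% mitochondrial UMIs and 0 to 2 with 1 library left out. Endothelial cells gave 3, 0 with no filter and 0 to 3, mesangial cells 1, 0 by DESeq2, 4 with no filter, 1 with doublets kept, 2 with mixed cells (both lower in aged libraries, where the main call was higher), 2 at 10% mitochondrial UMIs or with members among the clustering genes and 0 to 4 with 1 library left out, and cluster 15 gave 0, and 1 with no filter. The interferon-stimulated calls were not all higher in aged libraries under every setting. With mixed cells kept, mesangial cells gave 3, of which 1 was higher and 2 were lower. With doublets kept, podocytes gave 2 higher and 1 lower. Reversed values were -0.59 for podocyte Bst2 with mixed cells kept and 0.64 for podocyte Hbb-bs at 10% mitochondrial UMIs. Of 56 calls of list genes by class, 10 were kept without each single library.

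Libraries with the same replicate number shared only a number, with correlations of deviations of 0.020, 0.096, 0.004 and -0.010 in podocytes, endothelial cells, mesangial cells and cluster 15. With the replicate block, calls were 1345 in endothelial cells, 1098 in mesangial cells and 336 in cluster 15. Interferon-stimulated calls with the block were 5 in podocytes, 8 in endothelial cells and 2 in cluster 15, and flanking calls 6 in endothelial and 4 in mesangial cells.

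The young mesangial sums rest on 276 and 189 cells and on 38 UMIs of Trim30a and 1 of Trim30d, and 2 libraries per group limit every estimate of spread.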
